A study of Mus musculus with 24 samples.

Results

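The unstimulated C2C12 muscle tissues were the subject here, 6 control libraries of the 24 in the series. They were picked by their sample labels alone, and no stimulated library entered any value. C2C12 is a mouse myoblast line, and these cells carried the ChR2::tdTomato transgene, a blue-light-gated cation channel fused to a red fluorescent protein. The other 18 libraries came from tissues stimulated with light at 1, 4, or 10 Hz in 60-min sessions, and the controls belonged to the same experiment and carried the same transgene. The cells were seeded on grooved fibrin hydrogels and switched to horse serum medium with insulin-like growth factor 1 before lysis. All tissues twitched spontaneously, so the controls were unstimulated but not at rest. All wells came from a single cell line without nerve or blood vessels, which limits them as a model of muscle. RNA of the transgene was not analysed here.

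In myogenesis, proliferating myoblasts leave the cell cycle under the myogenic factors MyoD and myogenin, fuse through the membrane proteins myomaker and myomixer, and build sarcomeres. The first sarcomeres use embryonic and neonatal forms of myosin, actin, troponin, and the acetylcholine receptor, which adult fibres replace by fast or slow forms. Innervation drives much of the late exchange, so cultured myotubes are known for a mixture of early and late isoforms.

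The depth ran from 10474932 to 16749526 estimated counts per library, with a median of 11513304. Between any pair of libraries, log2 counts scaled to library size (CPM) correlated at 0.987 to 0.995 (Pearson's r, across genes, which are not independent replicates). Control 3 stood somewhat apart. On the first principal component of the 500 most variable genes, which carried 47.4% of their variance, it scored -13.5, and the other 5 libraries scored between -4.04 and 7.13. Control 1 had the largest share of ribosomal RNA, 0.678% of its TPM, the length-scaled share of transcripts, against 0.153% to 0.346% in the others. In bulk RNA, fewer cells of a type and less RNA per cell cannot be told apart.

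A gene was called detected when it reached 1 TPM in all 6 libraries. Of 56941 genes listed, 11809 or 20.7% were detected, among them 10913 protein-coding genes and 416 long noncoding RNAs. Expression was concentrated in few genes. The 10 most abundant genes held 9.16% of all TPM, the top 100 held 31.8%, and 299 genes made up 50% of the total.

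The most abundant RNA was H19, an imprinted noncoding RNA of embryonic and regenerating muscle. It ran from 15974 to 21200 TPM with a median of 19396, and all 6 libraries had it above every other gene. Housekeeping genes followed. The translation factor gene Eef1a1 reached 11055 ± 342 TPM (SD, n = 6), and the glycolytic gene Gapdh reached 10177 ± 514 TPM (n = 6). Of the 30 genes with the highest mean TPM, the sarcomere and myoglobin genes were Acta1, Myl1, Mb, and Mylpf. Mb, which encodes the oxygen store myoglobin, had 3261 to 4607 TPM with a median of 3930. Aldoa, the aldolase of glycolysis in muscle and many other tissues, had a median of 4487 TPM, and 28.8% of its 50-base stretches occur in other genes. Vimentin (Vim), an intermediate filament protein of immature muscle and mesenchyme, was still among the top genes at 3215 to 3689 TPM, with a median of 3372. Ribosomal protein genes and genes of the mitochondrial genome filled much of the rest. For a few top genes the value was uncertain. All 50-base stretches of the pseudogene Gm28437 were also found in mt-Co3, and 91.5% of those of the pseudogene Gm15772 occurred in other genes, mainly Rpl26. The short RNAs mt-Atp8 and Bc1 reached medians of 5341 and 6630 TPM on only 1337 to 3729 and 1316 to 3556 counts per library, since TPM divides by their small length.

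The tissue label was checked against marker genes. All 12 skeletal muscle markers were detected, with a summed level of 15667 to 19230 TPM. The labels call the cell type myoblast. The marker of proliferation Mki67 had 0.171 to 0.862 TPM, below the detection level in all 6 libraries. It was the only 1 of 25 cell cycle genes under 1 TPM in every library, and 18 of the 25 were detected. Markers of other lineages were detected in part. Over all genes listed, 20.7% were detected, on a base that includes pseudogenes, so the counts of these short lists are a description. Of the 6 endothelial and 8 neural markers 0 were detected, and their summed levels were at most 0.961 and 2.24 TPM. Of 7 leukocyte markers 1 was detected, the lysosomal gene Cd68, and the pan-leukocyte gene Ptprc was listed at 0. Of 8 fat cell markers 2 were detected, the regulators Pparg and Cebpa, and the fat cell products Adipoq and Plin1 stayed at or below 0.278 TPM. The cartilage and bone list had 3 of 8 detected, with the transcription factor Sox9 at a median of 68.3 TPM. The cartilage collagen Col2a1 was at most 0.146 TPM. Of 8 fibroblast markers 5 were detected, led by decorin (Dcn) at 115 to 169 TPM with a median of 147, and the fibroblast surface gene Thy1 was at most 0.0913 TPM. Of 4 tendon markers 1 was detected, the transcription factor Scx at a median of 52.1 TPM. Of 6 smooth muscle markers 4 were detected, among them Acta2, while the defining gene Myh11 was at most 0.0933 TPM. Of 8 heart markers 4 were detected, with Myh6 the only one at a mean of 10 TPM or more, and Myl7 and Nppa were listed at 0. The heart list summed to 44.9 to 70.2 TPM.

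The plot of stage and fibre type genes shows how these levels were ordered along differentiation.

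**Figure D1:**
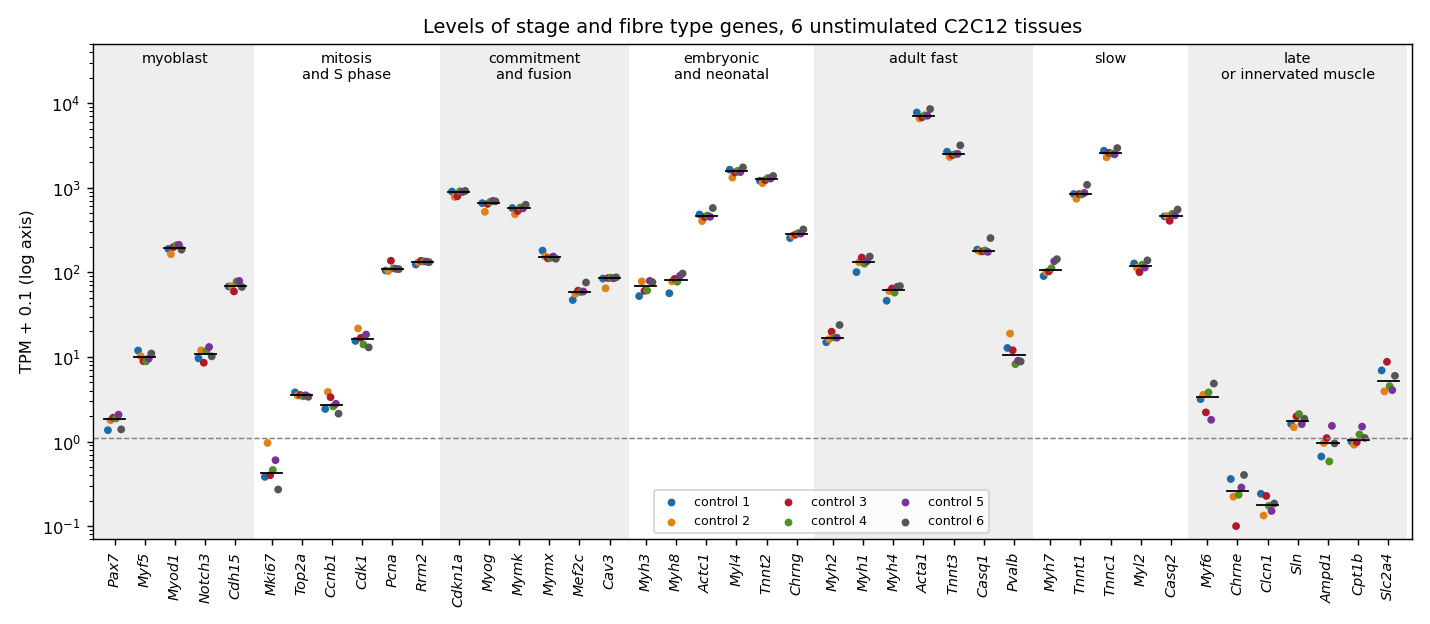
Levels of genes in 7 stage or fibre type groups, as TPM + 0.1 on a log axis. Each point is 1 of the 6 control libraries, the bar is the median, and the dashed line marks 1 TPM. Myog and Cdkn1a sit far above the line, with Mki67, Chrne, and Clcn1 near or below the line, and embryonic, fast, and slow genes share the upper range.

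Genes of cell cycle exit and fusion were high. Myog, which encodes myogenin, ran from 519 to 698 TPM with a median of 668, and Myod1 from 164 to 211 TPM with a median of 194. Together they made up nearly all RNA of the 4 myogenic factors, with Myog at 75.8% ± 0.988 (SD, n = 6) and Myod1 at 22.6% ± 1.05 (n = 6) of their summed TPM. The early factor Myf5 had a median of 9.77 TPM and the late factor Myf6 a median of 3.26 TPM, and the ranges of these levels did not overlap. Cdkn1a, the cell cycle inhibitor p21, was at 778 to 916 TPM with a median of 895. The fusion genes Mymk (myomaker) and Mymx (myomixer) had medians of 572 and 151 TPM. All 18 members of the commitment and fusion list were detected.

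Of 18 myoblast and satellite cell genes, 14 were detected. The most abundant were Des (desmin), an intermediate filament gene that muscle fibres keep, at a median of 1293 TPM, and the integrin gene Itgb1 at a mean of 492 TPM. Pax7, the defining factor of satellite cells, was at 1.26 to 1.98 TPM with a median of 1.73, just above the detection level in all 6 libraries, and the related Pax3 was listed at 0. The surface genes Cdh15 (M-cadherin) and Sdc4 (syndecan 4), which differentiating cells also express, had medians of 68.2 and 255 TPM. The Notch target Hey1 ranged from 5.49 to 18.9 TPM around a median of 13.0.

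In the cell cycle list, of 25 members, 18 were detected, and only Rrm2 and Pcna passed a mean of 100 TPM. Rrm2, a subunit of ribonucleotide reductase, had 124 to 137 TPM with a median of 133. Pcna, the clamp of DNA polymerases, had 104 to 137 TPM with a median of 109. Of the 25, 6 had a mean of at least 10 TPM. The mitotic cyclin gene Ccnb1 had a median of 2.59 TPM, the topoisomerase gene Top2a 3.41 TPM, and the kinetochore kinase gene Bub1 0.725 TPM. The mitotic kinase gene Cdk1 lay in between at 12.9 to 21.6 TPM, with a median of 16.

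The myosin heavy chains, the motors of the thick filament, were present as 6 sarcomeric genes side by side. The IIX gene Myh1 held 28.1% ± 1.74 (SD, n = 6) of their summed TPM, and the slow gene Myh7 held 24% ± 1.95 (n = 6). The neonatal gene Myh8 took 16.9% ± 0.645 and the embryonic gene Myh3 took 14.3% ± 1.48 (n = 6 for both). The IIB gene Myh4 had 12.8% ± 0.378 and the IIA gene Myh2 had 3.81% ± 0.415 (n = 6 for both). Embryonic and neonatal forms together came to 31.3% ± 1.43, and the 3 adult fast forms to 44.7% ± 2.22 (n = 6).

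In TPM, Myh1 ran from 100.2 to 153 with a median of 134, and Myh7 from 90.1 to 143 with a median of 107. Myh8 had 56.4 to 96.5 TPM (median 80.8) and Myh3 had 52.2 to 79.2 TPM (median 68.6). The lowest was Myh2, at 14.8 to 23.8 TPM with a median of 16.8. The ranges of neighbours in this order overlapped except for Myh2, whose highest library lay below the lowest of the others. Within a library the order was steadier. Of the 15 pairs among the 6 genes, 14 had the same gene higher in every library (two-sided exact sign-flip permutation test on the log2 ratio, Benjamini-Hochberg adjusted p = 0.0339 over 52 pairs, n = 6). The exception was Myh3 against Myh4, higher in 5 of 6 libraries (adjusted p = 0.0975, exact permutation test). The nearest called neighbours, Myh7 below Myh1 by 0.23 ± 0.20 and Myh3 below Myh8 by 0.24 ± 0.17 on the log2 scale (SD, n = 6), had single libraries close to equality.

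**Figure D2:**
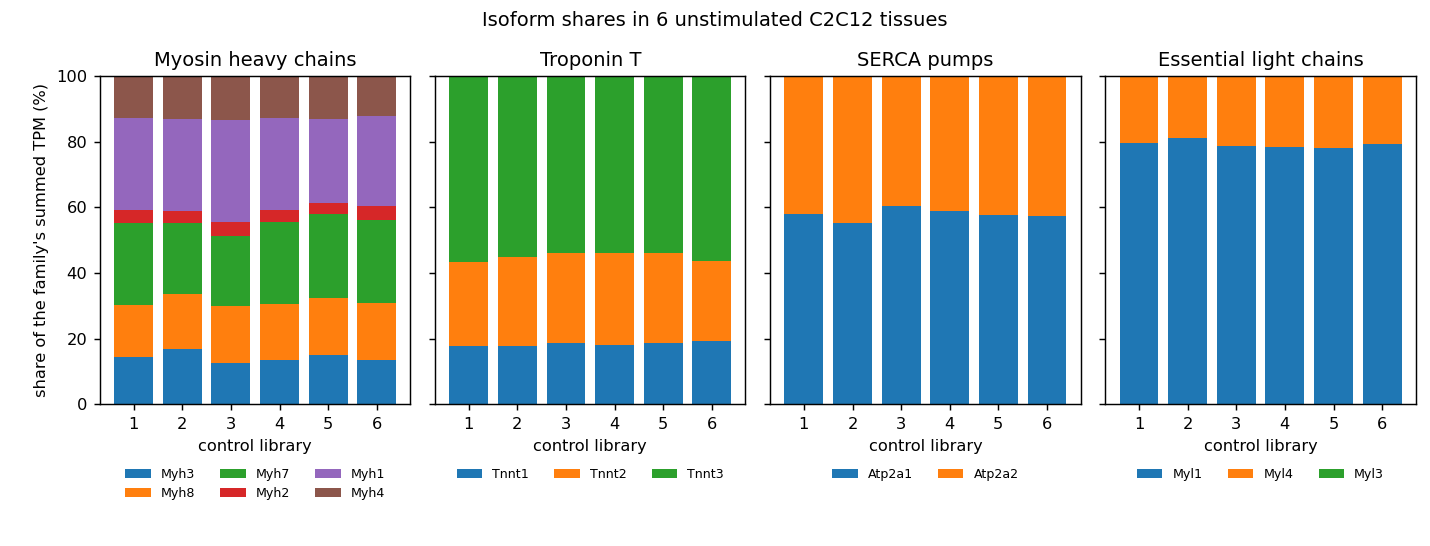
Share of each gene in the summed TPM of its family, in percent, for the 6 control libraries and 4 families. Each bar is a library and adds up to 100%. The shares differ little between libraries, and Myh1 and Myh7 take the most of the myosin heavy chains in every library.

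How far short reads can tell these genes apart was read from their transcripts. Of all 50-base stretches in the annotated transcripts of Myh1, 16.7% also occur in other genes, and 12.2% occur in Myh2. Myh2, Myh4, and Myh8 shared 18.3%, 14.1%, and 11.4% with other genes, and Myh3 shared 4.32%. Myh7 shared 13.2%, nearly all with the heart gene Myh6. The length used also mattered. The mean transcript length that the deposited counts and TPM imply was 6029 bases for Myh3, close to its full length of 5997 to 6286 bases, but 4018 ± 318 bases (SD, n = 6) for Myh7, whose longest model has 6363. For Myh6 it was 1309 ± 155 bases (n = 6) against a longest model of 6744, so its median of 49.7 TPM was assigned mostly to short transcript models. With CPM per kilobase of all annotated exons in place of TPM, Myh3 was 20.6% and Myh7 14.8% of the family, and Myh1 stayed the largest at 29.0%. On that scale Myh3 was above Myh8 by 0.63 and above Myh7 by 0.47 on the log2 scale, so the order below Myh1 depends on the length model.

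The striated actins of the thin filament were mostly the adult form. Acta1, skeletal muscle actin, had 6597 to 8515 TPM with a median of 7134, and Actc1, the cardiac actin of embryonic muscle, had 403 to 576 TPM with a median of 461. Acta1 held 93.9% ± 0.218 (SD, n = 6) of the pair. Both were apart in every library, by 3.96 ± 0.06 on the log2 scale (adjusted p = 0.0339, exact permutation test, n = 6). Smooth muscle actin Acta2, which cultured myoblasts also express, had a median of 495 TPM, and the cytoplasmic Actb and Actg1 had medians of 1572 and 1535 TPM. Of the 50-base stretches of Actg1, 50.6% occur in other genes, so its level is uncertain. The coding sequences of the striated actins differ throughout. The canonical Acta1 and Actc1 transcripts (GENCODE M39) are 86.2% identical over 1134 coding bases, with no identical run longer than 29 bases, and only 0.61% of the 50-base stretches of Acta1 occur in another gene. The stretch of coding bases 436 to 495 is shown because Acta1 and Actc1 differ there at 15 of 60 bases, and capitals mark each base that differs from Acta1.
Acta1: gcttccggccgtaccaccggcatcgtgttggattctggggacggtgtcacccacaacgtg
Actc1: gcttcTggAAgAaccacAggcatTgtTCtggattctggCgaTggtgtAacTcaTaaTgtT
Acta2: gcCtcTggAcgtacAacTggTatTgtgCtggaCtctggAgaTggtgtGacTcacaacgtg
The Acta2 stretch differs from Acta1 at 13 bases. In the GRCm39 annotation Acta1 lies on chromosome 8 (124618501 to 124623661, minus strand), Actc1 on chromosome 2 (113876266 to 113884043, minus strand), and Acta2 on chromosome 19 (34217737 to 34232990, minus strand).

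Serum response factor, which binds the CArG box, is known to drive striated actin genes. The promoters of both actin genes, from 250 bases before to 50 bases after the start (RefSeq, GRCm38.p6), are shown with their CArG box in capitals, for chr8:123894726-123895025 and chr2:114052826-114053125, both on the minus strand.
Acta1: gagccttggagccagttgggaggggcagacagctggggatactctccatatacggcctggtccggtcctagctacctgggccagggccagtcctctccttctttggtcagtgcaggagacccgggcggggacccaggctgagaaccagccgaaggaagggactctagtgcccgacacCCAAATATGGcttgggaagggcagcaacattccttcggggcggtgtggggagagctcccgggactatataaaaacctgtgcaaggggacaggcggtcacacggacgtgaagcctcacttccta
Actc1: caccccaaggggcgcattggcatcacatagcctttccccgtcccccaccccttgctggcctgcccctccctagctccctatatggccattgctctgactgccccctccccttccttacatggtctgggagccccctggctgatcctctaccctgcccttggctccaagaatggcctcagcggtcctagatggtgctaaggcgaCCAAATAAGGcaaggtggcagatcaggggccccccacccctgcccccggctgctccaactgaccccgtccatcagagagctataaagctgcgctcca
Each holds 1 match. Of all 27025 genes with a promoter in the RefSeq table, 1.81% hold a CArG box in this window, as do 8 of the 77 genes of the contractile, triad, and synapse lists with a promoter there, or 10.4%. A match is a description of the letters and not of binding.

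The myosin light chains resembled the actins. Myl1, the adult fast essential light chain, had 5505 to 6689 TPM, and Myl4, the embryonic and atrial form, had 1316 to 1741 TPM, medians 5709 and 1557. Myl1 made up 79.2% ± 1.09 (SD, n = 6) of the summed TPM of Myl1, Myl4, and the slow form Myl3, and Myl3 held 0.0756%. The nonmuscle and widely expressed essential chains were not part of this sum. Its implied mean length of 750 ± 4.45 bases (n = 6) lay between the 571 and the 1642 bases of its shortest and longest coding models. Of the summed TPM of the fast regulatory chain gene Mylpf and the slow Myl2, Mylpf held 96.8% ± 0.213 (n = 6). The widely expressed regulatory chains were not part of this sum.

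Troponin, the calcium switch of the thin filament, was mixed. In the tropomyosin-binding subunit, fast Tnnt3 held 55.0% ± 1.25, the cardiac and embryonic Tnnt2 held 26.7% ± 1.37, and slow Tnnt1 held 18.3% ± 0.582 (SD, n = 6). In the inhibitory subunit, slow Tnni1 and fast Tnni2 had overlapping levels, with medians of 1790 and 1900 TPM. Tnni2 was higher in 5 of 6 libraries, by 0.08 ± 0.07 on the log2 scale, and the pair was not called (adjusted p = 0.0663, exact permutation test, n = 6). With CPM per kilobase of exons it was called, at -0.49 for Tnni1 over Tnni2 on the log2 scale (adjusted p = 0.0339, exact permutation test, n = 6). In the calcium-binding subunit the slow and cardiac form led. Tnnc1 had 2285 to 2939 TPM with a median of 2560, fast Tnnc2 had 1472 to 1981 TPM with a median of 1692, and the ranges did not overlap. The 3 subunits of the same complex thus differed in which form was higher.

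Other sarcomere genes showed the same mixture. Of 12 thick filament and M-band genes 11 were detected, and of 26 thin filament and Z-disc genes 24 were. The slow myosin binding protein gene Mybpc1 had 116 to 165 TPM against 34.6 to 53.3 TPM for fast Mybpc2, with no overlap, and the cardiac Mybpc3 was at most 0.164 TPM. The Z-disc gene Myoz2 of slow and cardiac muscle had a median of 210 TPM and the fast Myoz1 a median of 3.66 TPM, a ratio of means of 59.7. In contrast the fast actinin gene Actn3, median 285 TPM, exceeded Actn2, median 85.6 TPM, which all fibres use. By implied mean length, which weights transcript models by their TPM, most TPM of the giant genes lay on models well below the longest. This length does not show how their counts were divided between models. Ttn (titin) had a median of 33.0 TPM at an implied mean length of 20007 ± 2040 bases (SD, n = 6), and its longest coding model has 107543. Neb (nebulin) had a median of 89.0 TPM at 4714 ± 491 bases (n = 6) of a longest 23381. The TPM of such genes is higher than a full-length model would give.

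Across families, 52 pairs of related genes were compared within libraries. In 24 the first gene was higher in all 6 libraries, in 24 the second, and in 4 the libraries were split. The 48 unsplit pairs were those called (adjusted p = 0.0339 for each, exact permutation test, n = 6, the smallest this design allows). Among the 10 pairs of a developmental or immature against an adult form, the adult form was higher in 5, the immature form in 4, and 1 was split. Adult forms that led were Acta1, Myl1, Tnnt3, and Ryr1, among others. Immature forms led for Chrng, Utrn, Vim, and Actn1. Among the 11 pairs of a slow or cardiac against a fast form, the fast form was higher in 6 and the slow form in 4. Among 16 pairs of a widely expressed against a muscle form, the widely expressed form was higher in 10 and the muscle form in 5, but with CPM per kilobase of exons 7 pairs were called in each direction. The split pairs were Flna and Flnc, Tnni1 and Tnni2, Hk1 and Hk2, and Myh3 and Myh4. A split pair is not shown to be equal.

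**Figure D3:**
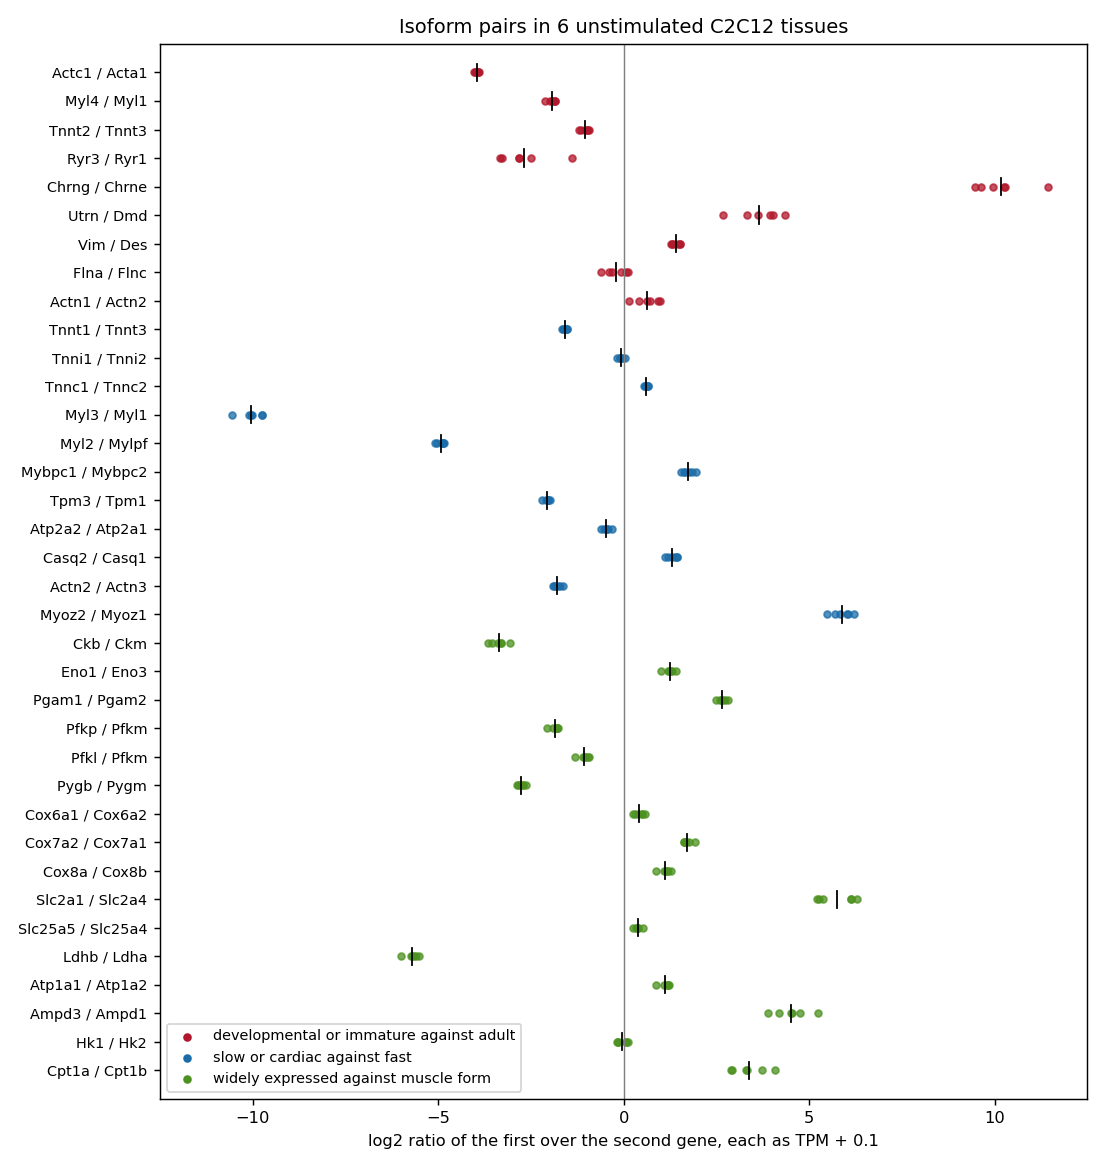
Log2 ratio of the first over the second gene for pairs outside the myosin heavy chains, each gene as TPM + 0.1. Points are the 6 control libraries, the bar is their mean, and colour gives the class of the pair. Chrng over Chrne and Myl3 over Myl1 lie farthest from 0, on opposite sides, and 3 of these pairs cross 0.

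Synapse genes included the fetal but not the adult receptor subunit. The acetylcholine receptor of fetal muscle uses the gamma subunit Chrng, and innervated adult fibres replace it by the epsilon subunit Chrne. Chrng had 254 to 321 TPM with a median of 282, on 3775 to 6021 counts per library. Chrne was at most 0.302 TPM with a median of 0.161, and it was detected in none of the 6 libraries. The shared subunit genes Chrna1, Chrnb1, and Chrnd had medians of 145, 53.4, and 175 TPM. Of the 20 genes of membrane excitability and synapse 17 were detected, including the receptor-clustering genes Musk, Rapsn, and Dok7 at medians of 13.2, 42.9, and 11.7 TPM. The muscle chloride channel gene Clcn1, which adult fibres need to stay electrically stable, was at most 0.141 TPM.

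The promoters of Chrng and Chrne are shown because their genes were far apart, by 10.17 ± 0.70 on the log2 scale of TPM + 0.1 (SD, n = 6). Chrne was below the detection level, so the size depends on the pseudocount and was 7.93 with TPM + 1. Capitals mark CAGCTG, an E-box form bound by MyoD and myogenin, in chr1:87205561-87205860 (plus strand) and chr11:70619145-70619444 (minus strand) of GRCm38.p6 (RefSeq).
Chrng: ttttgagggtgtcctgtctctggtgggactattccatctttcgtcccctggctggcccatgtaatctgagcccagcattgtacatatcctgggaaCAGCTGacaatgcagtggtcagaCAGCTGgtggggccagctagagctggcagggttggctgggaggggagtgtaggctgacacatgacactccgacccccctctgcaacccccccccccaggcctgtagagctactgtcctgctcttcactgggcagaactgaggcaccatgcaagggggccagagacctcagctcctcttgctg
Chrne: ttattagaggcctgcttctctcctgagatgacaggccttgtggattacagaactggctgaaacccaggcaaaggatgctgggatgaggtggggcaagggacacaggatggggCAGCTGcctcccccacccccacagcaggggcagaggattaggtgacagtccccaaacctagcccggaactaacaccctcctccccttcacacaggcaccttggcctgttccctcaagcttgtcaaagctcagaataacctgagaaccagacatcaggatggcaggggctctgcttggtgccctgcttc
The Chrng window holds 2 matches and the Chrne window 1. The motif reads the same on both strands. It occurs in 18.3% of all promoters and in 33 of the 77 list promoters, or 42.9%. The wider form CANNTG, which includes it, occurs in 75% of all promoters, and 3 matches are in the Chrng window and 1 in the Chrne window. Both genes hold the motif at very unequal RNA levels.

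The triad, where the surface membrane meets the calcium store, was complete as far as measured. All 22 genes of the triad and calcium list were detected. The voltage sensor gene Cacna1s had a median of 46.2 TPM and the release channel gene Ryr1 a median of 14.3 TPM. Ryr3, the release channel of developing muscle, had 1.21 to 4.57 TPM, and its implied mean length varied by 28.8% between libraries. The calcium pump genes Atp2a1 (fast, SERCA1) and Atp2a2 (slow and cardiac, SERCA2) held 58.0% ± 1.75 and 42.0% ± 1.75 of their sum (SD, n = 6). Their medians were 717 and 515 TPM, and Atp2a1 was the higher in all 6 libraries. Of the calsequestrins, which store calcium, the cardiac and slow gene Casq2 had 406 to 552 TPM and the fast Casq1 174 to 254 TPM, with no overlap. Of the 22, 20 had a mean of at least 10 TPM. The calcium buffer gene of fast fibres, Pvalb, had 8.10 to 18.8 TPM, and the SERCA inhibitor gene Sln had 1.38 to 2.01 TPM.

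Of the 25 members of the metabolism list, 21 were detected. The basal glucose transporter gene Slc2a1 had 231 to 363 TPM with a median of 296, and Slc2a4, the insulin-responsive GLUT4 of adult muscle, had 3.81 to 8.66 TPM with a median of 5.15. Pgam1 exceeded the muscle form Pgam2 by 6.30 in the ratio of means, Cox7a2 exceeded Cox7a1 by 3.26, and Eno1 exceeded Eno3 by 2.37. With CPM per kilobase of exons, the Cox7a2 ratio turned to -0.40 on the log2 scale and the Eno1 ratio was 0.24 and no longer called (adjusted p = 0.0637, exact permutation test, n = 6). The muscle form led for creatine kinase, where Ckm had a median of 348 TPM and Ckb had a mean of 34.8 TPM. It also led for glycogen phosphorylase (Pygm over Pygb, 6.80 in the ratio of means) and phosphofructokinase (Pfkm over Pfkl, 2.10). Among the members not detected were the fatty acid transport gene Cpt1b at a median of 0.95 TPM, the AMP deaminase gene Ampd1 at 0.855 TPM, and the gluconeogenic Fbp2 at 0.0893 TPM. In contrast 16 of the 25 had a mean of at least 100 TPM.

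Of the 21 genes of the dystrophin complex and basal lamina, 20 were detected. The exception was Dmd itself, at 0.592 to 1.72 TPM with a median of 0.783, while its relative Utrn (utrophin), which precedes it in development, had 9.86 to 15.5 TPM and a median of 11.4. Utrn was higher in every library, by 3.66 ± 0.59 on the log2 scale (SD, n = 6, adjusted p = 0.0339, exact permutation test). The partner genes Dag1 (dystroglycan) and Sgca (alpha-sarcoglycan) had medians of 134 and 103 TPM. Among transcription factors of fibre type, the embryonic to fetal switch factor Nfix had a median of 109 TPM and the slow repressor Sox6 at most 0.0285 TPM. Of that list 18 of 24 were detected.

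Genes of atrophy and of muscle without nerve were uneven. Of 13 members 10 were detected. Gadd45a, a stress gene that denervation induces, had 574 to 724 TPM with a median of 624, and Runx1, another gene of denervated muscle, had a median of 62.0 TPM. The ubiquitin ligase genes Trim63 (MuRF1) and Fbxo32 (atrogin-1) had medians of 68.2 and 2.57 TPM. Of 26 secreted factors 24 were detected. The most abundant of these were Sparc, a matrix protein gene, at a median of 1864 TPM, and Igfbp5, which binds insulin-like growth factors, at 492 TPM. Vegfa, the vascular growth factor gene, had 323 to 475 TPM. Igf2 had 153 to 171 TPM and Igf1 0.781 to 2.62 TPM, without overlap, and the medium supplied the Igf1 protein. Myostatin (Mstn), the brake on muscle growth, was at most 0.496 TPM. Of 16 fibrillar matrix genes 14 were detected, with the proteoglycan gene Bgn at a median of 1226 TPM and collagen Col3a1 at 282 TPM.

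The spread between libraries was measured as the biological coefficient of variation (CV), the relative spread of a gene beyond counting error, from edgeR. Over 12182 genes with enough counts, the median was 9.17%, with quartiles of 8.10% and 11.1%. The edgeR values share information between genes, which draws each gene toward a common trend. By a separate estimate from each gene alone, 14.2% of these genes had a spread no larger than counting error gives. A CV over 25% was found for 132 genes, or 1.08%. Without control 3 the count was 98, and without the other libraries in turn it was 110 to 146. All wells share a cell line, so this is the spread between parallel tissues.

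**Figure D4:**
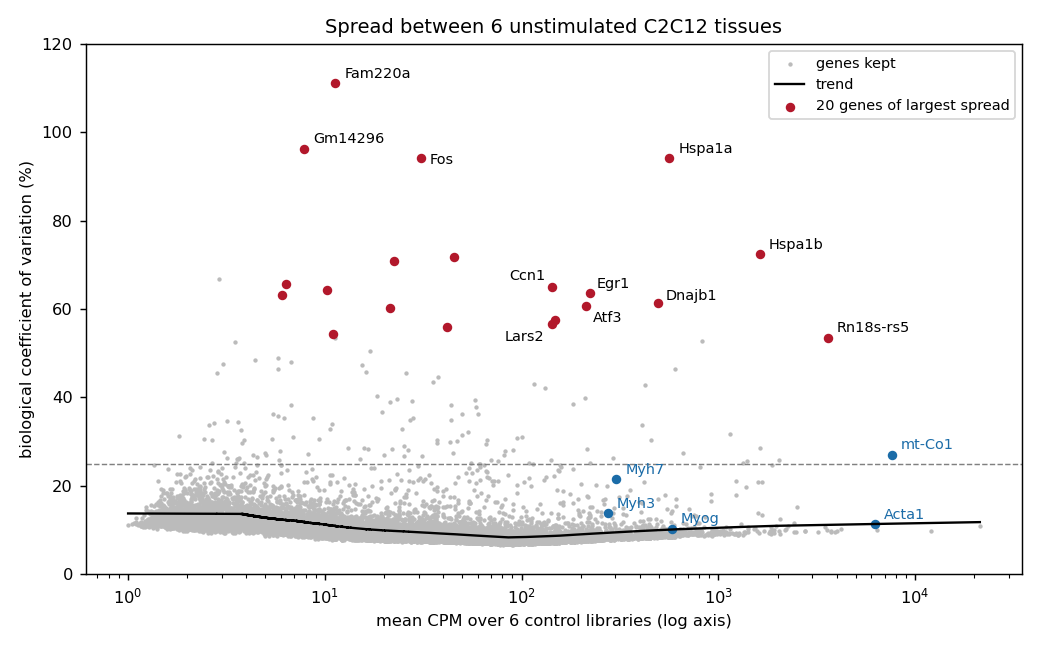
Biological CV against mean CPM (log axis) for the 12182 genes kept, over the 6 control libraries. The line is the trend, the dashed line marks 25%, red points are the 20 genes of largest CV, and blue points are named for reference. Acta1, Myog, Myh3, and Myh7 lie below 25% and Fos, Hspa1a, and Dnajb1 far above it.

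In the lists of myosins, actins, troponins, tropomyosins, thick and thin filaments, triad, synapse, and fusion, 0 members had a CV over 25%, against 1.08% of all genes. These lists had 4 to 24 genes with enough counts each, so 0 is close to that share. The median CV of each of these lists was above the 9.17% of all genes. It ran from 9.29% for the fusion list to 13.5% for the actins, with the sarcomeric myosins at 13.0%. Myog was at 10.2%, Acta1 at 11.3%, Myh1 at 11%, and Myh3 at 13.8%. Myh7 was the most variable sarcomeric myosin at 21.5%. The 10 genes of smallest spread among those with at least 5 CPM were Tkt, Kansl3, Dcaf10, Drg1, Ranbp9, Aida, Kctd20, Ist1, Icmt, and Plekha1. Tkt, a transketolase of the pentose phosphate pathway, lay between 79.0 and 81.1 CPM in the 6 libraries.

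The 20 genes of largest spread were headed by Fam220a and Gm14296, followed by the stress and early response genes Hspa1a, Fos, and Hspa1b. The implied mean length of Fam220a varied by 65.3% between libraries. Early response genes are switched on within minutes by serum, stretch, or calcium, and heat shock genes by unfolded protein. Fos, the best known early response factor, had 54.1 CPM in control 1, 54.4 in control 2, 4.15 in control 3, 10.3 in control 4, 8.64 in control 5, and 53.6 in control 6. Controls 1, 2, and 6 were thus high and nearly equal, and control 3 was the lowest. Hspa1a, an inducible HSP70 gene, had 883, 874, 35.9, 284, 265, and 1036 CPM in controls 1 to 6, in that order. The order of the libraries resembled that of Fos, with control 3 lowest by far. Egr1, an early response zinc finger factor, had 320, 358, 76.8, 116, 106, and 356 CPM in the same order. Dnajb1, the HSP40 partner of HSP70, had 712, 706, 136, 317, 295, and 804 CPM. Atf3, a stress factor, had 340, 290, 54.4, 145, 136, and 308 CPM. Of the 20 genes, 17 were lowest in control 3, against 23.1% of all genes kept and 76 of the 132 genes with a CV over 25%. These values chose the genes, so the count is a description. Without control 3, 18 of the 20 still had a CV over 25%, among the other 5 libraries.

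**Figure D5:**
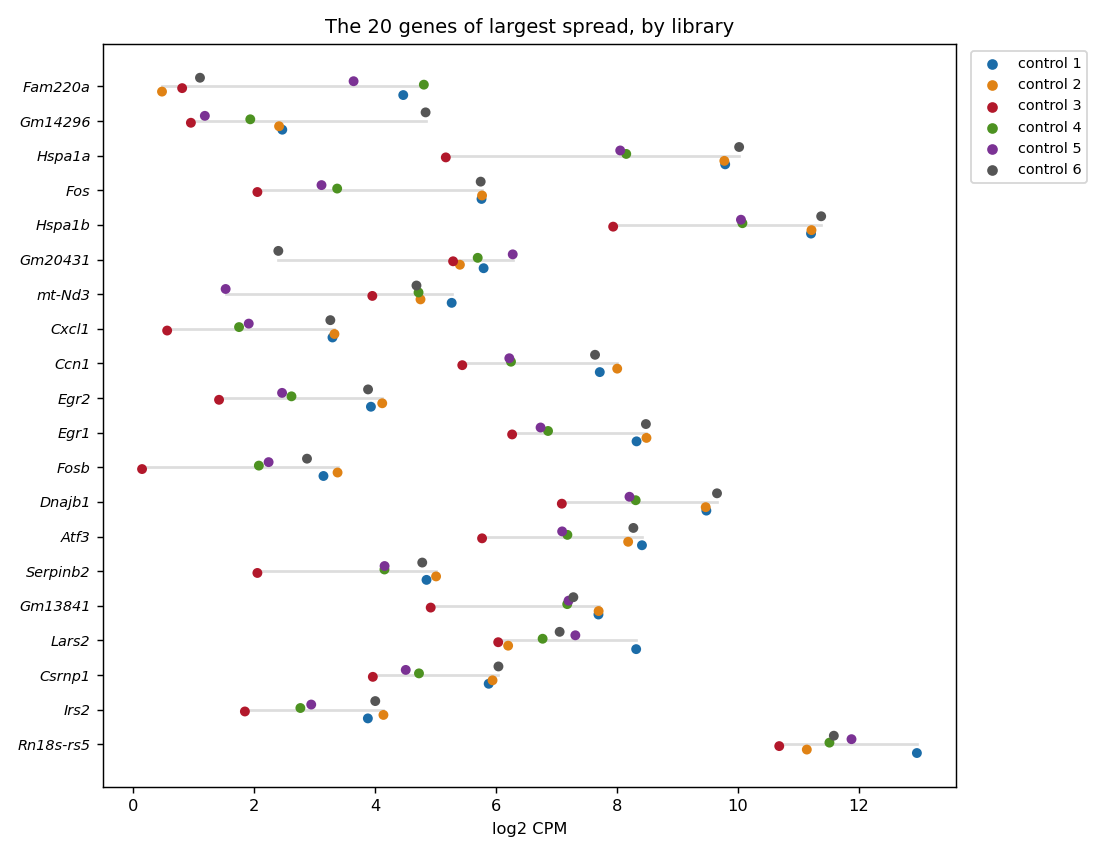
Log2 CPM of the 20 genes of largest biological CV among genes with at least 5 CPM, from the largest at the top. Each point is 1 of the 6 control libraries, in its colour. Control 3 is lowest for 17 of the 20, and for Fos, Hspa1a, and Egr1 controls 1, 2, and 6 lie together at the high end.

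The lists of early response, heat shock, and endoplasmic reticulum chaperone genes were written after these values had been seen and are a description. Of 34 early response genes 32 were detected, and 12 had a CV over 25%, against 1.08% of all genes. All 12 were lowest in control 3, as were 76 of all 132 genes with a CV over 25%. Others of the list varied little, such as Fosl1 at 9.66%, Klf4 at 8.54%, and Myc at 8.27%. Of 24 heat shock genes all were detected and 7 had a CV over 25%, Hspa1a, Hspa1b, Hsph1, Hspb1, Dnajb1, Dnajb4, and Bag3. All 7 were lowest in control 3. Without control 3, 11 early response genes and 3 heat shock genes remained over 25%. The constitutive HSP70 gene Hspa8 had a CV of 15.2%, and Hsp90ab1 10.7%. None of the 10 endoplasmic reticulum chaperones passed 25%, with Hspa5 (BiP) at 10.3%.

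Hspa1a and Hspa1b are neighbouring near copies on chromosome 17, so their counts are uncertain between the copies. Of the 50-base stretches of Hspa1a, 58.8% occur in Hspa1b, and of those of Hspa1b, 62.3% occur in Hspa1a. Both were high in controls 1, 2, and 6 and lowest in control 3, with Hspa1b at 2362, 2374, 245, 1076, 1058, and 2653 CPM in controls 1 to 6. Their promoters (RefSeq, GRCm38.p6, chr17:34972107-34972406 and chr17:34959189-34959488, both minus strand) are shown because both genes moved together, with the heat shock motif GAANNTTC or TTCNNGAA in capitals.
Hspa1a: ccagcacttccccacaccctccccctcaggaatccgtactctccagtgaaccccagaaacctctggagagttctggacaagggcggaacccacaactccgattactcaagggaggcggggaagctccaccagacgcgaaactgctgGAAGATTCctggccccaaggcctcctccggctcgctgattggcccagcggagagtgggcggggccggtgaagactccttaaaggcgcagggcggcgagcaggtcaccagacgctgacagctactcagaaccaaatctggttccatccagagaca
Hspa1b: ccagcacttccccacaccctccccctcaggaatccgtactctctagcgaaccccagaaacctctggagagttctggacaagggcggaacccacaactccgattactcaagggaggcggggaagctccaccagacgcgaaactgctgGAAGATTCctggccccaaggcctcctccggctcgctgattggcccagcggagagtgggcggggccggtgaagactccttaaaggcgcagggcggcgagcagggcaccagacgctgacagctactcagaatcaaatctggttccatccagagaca
The promoters differ at 4 of 300 bases, and each holds 1 match. The motif, searched on both strands, was found in 17.0% of all promoters and in 13 of the 18 heat shock list genes with a promoter in the table, or 72.2%.

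Of the 13 protein-coding genes of the mitochondrial genome, 9 had a CV over 25%, against 1.08% of all genes, with a median of 26.9% over the 13. Their summed share of TPM was 2.43% in control 1 and 4.79% in control 2, the lowest and the highest. Of the 50-base stretches of mt-Co1, mt-Co2, and mt-Atp6, 51.1%, 100%, and 99.5% occur in other genes, and 0% of those of mt-Atp8. The other genes of the 13 were not searched. Levels and CVs of genes with such copies are uncertain, and pseudogene copies such as Gm28437 were not part of the summed share. Of the 9, 6 were lowest in control 1 and 7 highest in control 2. Without control 1 the count was 4 and without control 2 it was 3, while without the other libraries in turn it was 8 to 11. Ribosomal RNA and Lars2 were both highest in control 1 and lowest in control 3. Rn18s-rs5, an 18S ribosomal RNA gene, had 7947 CPM in control 1 and 1641 to 3756 CPM in the others. Lars2, which encodes a mitochondrial leucyl-tRNA synthetase, had 318 CPM in control 1 and 65.5 to 159 in the others. Without control 1 their CVs were 29.3% and 35.4%, against 53.5% and 56.6% with it. The labels mention poly(A) selection, with ribosomal RNA depletion for low-input samples, and do not say which libraries those were. The part of the ribosomal RNA share in the level of Lars2 was not tested. Of the 14 fibrillar matrix genes with enough counts, Col1a1, Col6a3, and Tnc had a CV over 25%, against 1.08% of all genes. All 3 were lowest in control 3 and highest in control 2. Of all 132 genes with a CV over 25%, 76 were lowest in control 3 and 48 highest in control 2. Of the matrix list 1 gene was over 25% without control 3 and 0 without control 2. Of the 24 secreted factors with enough counts, Igfbp2, Bdnf, and Gdnf passed 25%, with Bdnf, a neurotrophin gene, at 4.29 to 13.2 TPM. All 3 were lowest in control 3, and without it 1 remained over 25%, Bdnf at 25.3%. Of the 15 satellite cell and myoblast genes with enough counts, Notch1 and Hey1 were over 25% and lowest in control 3. Without control 3 neither was over 25%. Mki67 and Ccna2 passed among the 23 cell cycle genes with enough counts, with control 2 the highest for both, and without control 2 neither did.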

How the data were processed

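Bulk RNA of 6 unstimulated C2C12 tissues was measured. Per the labels and the study's methods, poly(A) RNA was selected with beads, low-input samples were ribodepleted instead, and libraries were sequenced as paired reads of 50 bases. The authors quantified the reads with Salmon and deposited estimated counts per gene (6.41% of the values were not whole, off by more than 0.001) and TPM, which divide by transcript length and have the same sum in every library. The submitters' processing notes also name STAR, BWA 0.7.12-r1039, and bedtools 2.25.0 without a role, and the study's methods name a directional (stranded) library kit. The strand setting of the counting was not given in the sources used here. A gene on the opposite strand overlapped 111 of the 173 genes named, and if strand was not used in counting, reads of such pairs may be mixed.

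Samples were grouped by their titles. Counts were rounded and TMM-scaled, and the biological CV was estimated with edgeR 4.0.16 (R 4.3.3) for genes kept by filterByExpr (minimum count 10, minimum total 15). CPM values of single libraries are TMM-scaled. Pairs of genes were compared as log2(TPM + 0.1) within a library with an exact two-sided sign-flip permutation test. With 6 libraries its smallest p is 0.03125 (2 of 64 sign patterns), and p-values were adjusted over 52 pairs. Both procedures were tested on simulated data. The named genes were members of gene lists and pairs, the 30 highest by mean TPM, and the 20 most and 10 least variable at 5 CPM or more. The members and lists were chosen with earlier results of these data known. Alternatives were other scalings, filters, pseudocounts, a length model, DESeq2 1.42.0, and leaving out each library. Of the gene identifiers, 98.9% were found in GENCODE M39, which gave names, positions, and transcripts on GRCm39. Shared sequence was counted as 50-base stretches. Implied transcript length was obtained from the ratio of counts to TPM, scaled on 138 genes with 1 transcript, of which 87.0% to 87.7% came within 5% of their length in each library. The depth of 10474932 to 16749526 counts limits values near 1 TPM. A few genes of these lists and pairs are not reported here.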

Additional observations from a re-analysis of the deposited data

Results flagged for a closer look

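In 184 groups of 6 values, 1 library stood apart by Dixon's ratio at its 95% limit in 16. Chance gives about 1 in 20 for independent groups of normal values. Adipoq, Plin1, and Thy1 are among the 16 because they were listed at 0 in all libraries but 1, which fixes their ratio at 1. The count of 16 thus cannot be set against 1 in 20. Control 6 was highest for 5 genes. The fast calsequestrin Casq1 had 254 TPM there and 174 to 186 in the others, the fast myosin binding protein Mybpc2 53.3 against 34.6 to 40.05, and slow troponin Tnnt1 1082 against 740 to 867. Dystrophin (Dmd) had 1.72 TPM in control 6 against 0.592 to 0.970, and the fibroblast marker Thy1 0.0913 against 0.

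Control 1 was highest for the fusion gene Mymx at 180.4 TPM (145 to 154 in the others), the synapse gene Rapsn at 51.3 TPM (40.4 to 43.5), Rn18s-rs5 at 6652 TPM (1515 to 3383), and the ribosomal RNA share at 0.678% (0.153% to 0.346%). Its share of Myh8 among the sarcomeric myosins was the lowest, 15.7% against 16.8% to 17.4%. Control 2 was lowest for Myog, 519 TPM against 643 to 698, and highest for the cyclin gene Ccna2, 3.05 TPM against 1.07 to 1.57. Control 3 was highest for Pcna, 137 TPM against 104 to 111, and lowest for Igfbp5, 418 TPM against 489 to 530.3. The fat cell genes Adipoq (0.278 TPM in control 4) and Plin1 (0.159 TPM in control 3) were listed at 0 in the other 5 libraries.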

How the results depend on the processing

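No paired analysis was possible because the libraries form 1 group. The share of Myh3 and Myh8 among the sarcomeric myosins, 31.3%, was 33.9% with CPM per kilobase of annotated exons and 34.5% as a share of estimated counts, and 30.8% to 31.5% when a library was left out. Over all families and both of these scales, 63 share values moved by more than their SD between libraries and 19 did not. The SDs of the shares thus do not cover the choice of scale. Of the 52 pairs, 48 were called under each of both other pseudocounts and with CPM per kilobase, but 6 turned direction under the last, on the log2 scale: Myh3 over Myh8 (0.63), Myh3 over Myh7 (0.47), Myh8 over Myh4 (-0.45), Myh7 over Myh4 (-0.29), Cox7a2 over Cox7a1 (-0.40), and Cox6a1 over Cox6a2 (-0.0059). Under it Eno1 over Eno3, Cox6a1 over Cox6a2, and Myh8 over Myh7 lost their call, and Flna over Flnc, Tnni1 over Tnni2, and Hk1 over Hk2 gained one, so the 48 called are not the same pairs. That scale divides by all annotated exons and TPM by the transcripts estimated as present. With 5 libraries the smallest p is 0.0625, so no pair can be called, and 48 to 49 pairs were unsplit. The median biological CV of 9.17% was 20.7% without a filter on low counts and 8.51% with at least 50 counts in every library, and 8.52% to 9.95% with a library left out. The 132 genes over 25% became 10596 without the filter, 80 with 50 counts, 241 with DESeq2 dispersions, and 537 by the SD of log2(TPM + 1), and 98 to 146 with a library left out. The unfiltered count includes genes with few or no counts. Detected genes numbered 11849 to 11894 with a library left out. Values near 1 TPM, such as those of Igf1 and Cpt1b, rest on few reads. Dmd has more reads per TPM than a short gene, since its implied mean length was 12469 bases. That length varied by 18.7% between libraries.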
